A study of Mus musculus with 24 samples.

Results

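The 10 genes described here, Lgr5, Ascl2, Olfm4, Smoc2, Lrig1, Prom1, Msi1, Cdca7, Slc12a2 and Aqp4, are markers of the stem cells at the base of the intestinal crypt. They were selected by symbol from the deposited table of estimated counts. Each symbol matched 1 of its 37620 rows, and all 10 genes were among the 16552 that passed the filter on low counts. The table covered polyadenylated RNA of jejunal crypts from 24 mice aged 5 to 10 weeks, with 1 library per mouse and 3 mice in each of 8 groups. The 4 genotypes were labelled Control, NlecKO (conditional knockout of Nle1, also called Notchless), ApccKO (conditional knockout of Apc) and ApccKO;NlecKO (both knockouts, called the double knockout below). Crypts were taken 24 h after induction on day 1 and 48 h after it on day 2. Every group, Control included, had received tamoxifen intraperitoneally at 56 mg/kg on 3 days. The labels name neither the Cre driver nor the floxed alleles, and give no further genotype for the Control mice. Each library came from whole crypts, so it held RNA of all crypt cells, and fewer cells of a type and less RNA per cell cannot be told apart. The p-values rest on the spread between mice of the same group, 3 per group, estimated over all 8 groups together unless stated otherwise.

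Crypt base stem cells sit between Paneth cells and divide to renew the epithelium, and Wnt signalling maintains them. The APC protein belongs to the complex that degrades beta-catenin, so cells without it switch Wnt target genes on whether or not a Wnt ligand is present. The Notchless protein is needed for maturation of the precursor of the large ribosomal subunit. Among the markers, Lgr5 is a receptor for R-spondins, which strengthen Wnt signalling, and Ascl2 is a transcription factor of the stem cell programme. Olfm4 and Smoc2 encode secreted glycoproteins, Lrig1 a membrane protein that restrains ErbB receptors, and Prom1 (CD133) a glycoprotein of membrane protrusions. Msi1 encodes an RNA-binding protein, Cdca7 a chromatin-associated protein of dividing cells, Slc12a2 a sodium, potassium and chloride cotransporter, and Aqp4 a water channel. Lgr5, Ascl2, Olfm4 and Smoc2 are usually taken as the narrower markers, while Prom1, Lrig1, Msi1, Cdca7 and Slc12a2 are also transcribed in the dividing progenitors above the crypt base.

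Promoter windows of 300 bases around the annotated gene start were available for 5 of the 10 markers, from RefSeq on build GRCm38.p6: Olfm4, Ascl2, Cdca7, Prom1 and Lrig1. No window was matched for Lgr5, Smoc2, Aqp4, Slc12a2 or Msi1. Both strands were searched for CTTTGA (reverse TCAAAG), the core of the TCF/LEF site through which beta-catenin acts, and for TGGGAA (reverse TTCCCA), the core of the RBPJ site of Notch signalling; the motifs do not overlap each other. CTTTGA was present in 16% of the 32851 windows of the whole table and TGGGAA in 25.6%. The windows of 3 markers whose levels moved differently are shown, with matches in capitals: that of Olfm4 at chr14:80000052-80000351 on the plus strand, that of Ascl2 at chr7:142969215-142969514 on the minus strand, and that of Prom1 at chr5:44094719-44095018 on the minus strand.
Olfm4: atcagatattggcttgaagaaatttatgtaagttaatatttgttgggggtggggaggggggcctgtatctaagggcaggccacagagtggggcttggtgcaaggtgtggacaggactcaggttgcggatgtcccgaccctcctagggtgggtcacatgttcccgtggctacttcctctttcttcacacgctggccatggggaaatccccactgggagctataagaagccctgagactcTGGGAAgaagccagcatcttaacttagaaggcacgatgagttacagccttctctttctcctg
Ascl2: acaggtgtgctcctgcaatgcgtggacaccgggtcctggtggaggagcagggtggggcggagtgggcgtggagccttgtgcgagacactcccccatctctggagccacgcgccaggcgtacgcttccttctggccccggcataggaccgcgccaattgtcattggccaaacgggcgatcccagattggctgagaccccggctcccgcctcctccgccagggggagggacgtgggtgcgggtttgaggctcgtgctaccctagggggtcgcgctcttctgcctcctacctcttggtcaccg
Prom1: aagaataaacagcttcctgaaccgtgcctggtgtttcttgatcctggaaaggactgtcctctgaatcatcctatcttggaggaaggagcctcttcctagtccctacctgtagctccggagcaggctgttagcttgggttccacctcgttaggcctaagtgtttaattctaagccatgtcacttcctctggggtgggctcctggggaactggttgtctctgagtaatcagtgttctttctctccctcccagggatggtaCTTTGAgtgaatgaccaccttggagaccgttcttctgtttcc
The Olfm4 window held TGGGAA from position -12 relative to the start, and this Prom1 window held CTTTGA from position 8. The Ascl2 window held neither word, and neither did that of Lrig1. The Cdca7 window and the other Prom1 window each held TTCCCA, from positions -227 and -116. A match is a run of letters and was not tested as a binding site.

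Levels of a gene are given in CPM (estimated counts scaled to a common library size by TMM), levels between genes in the authors' TPM, which account for transcript length, and changes as log2 fold change ± SE. A gene was called where its adjusted p was under 0.05 by the quasi-likelihood test of edgeR, adjusted by the Benjamini-Hochberg method across the 16552 genes. Library totals were 17.86 to 26.47 M estimated counts. As a check of the labels, Nle1 stood at 20.1 to 39.9 CPM in the 12 libraries with Nle1 and at 4.81 to 12.3 CPM in the 12 without it. Apc stood at group means of 130 to 147 CPM and was called in no comparison, so whole-gene counts do not check the Apc label. The codes of the Apc-lost libraries form 1 run between those of the others, so a batch of that run and Apc loss cannot be told apart within a day. On day 1, replicates 2 and 3 of ApccKO and replicate 3 of the double knockout stood apart: Gm8730 and Gm9625 were under 1 CPM in these 3 and at least 29.4 CPM in the other 21, and results that change without them are given both ways. Summed goblet markers (8 of 8 tested) were at 9180 to 13700 CPM in the Apc-intact libraries and at 2370 to 6760 in the Apc-lost ones, and immune markers (10 of 10) at 236 to 544 and 49.5 to 151. The ranges overlapped in part for enterocyte markers (14 of 14), at 10500 to 53400 and 2770 to 17700 CPM, and for Paneth markers (10 of 10), at 6840 to 14100 and 8380 to 16300. The 6 defining genes of the epithelium summed to 5310 to 9330 CPM over all libraries. The 10 stromal and endothelial genes (7 tested) summed to 8.84 to 60.9 CPM: Lum was at 0 in 13 libraries, Cdh5 in 6, Pdgfra in 3 and Acta2 in 2, while Vim was above 0 in all, with a median of 11.6 CPM.

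In Control crypts on day 1 the markers spanned a wide range of transcript levels per length. Olfm4 was the most abundant at 712 ± 174 TPM (SD, n = 3), followed by Slc12a2 at 89.6 ± 16.1 TPM and Cdca7 at 69.3 ± 14.3 TPM, whose libraries overlapped each other. Lgr5, the marker by which these cells are usually identified, was the least abundant at 11.0 ± 0.985 TPM, and its libraries overlapped those of Ascl2 at 12.5 ± 2.15 TPM. Lgr5 was also last of the 10 in NlecKO on both days and in Control on day 2, whereas in ApccKO on day 2 it stood eighth at 102 ± 29.6 TPM and Aqp4 was last at 25.9 ± 3.58 TPM. In the double knockout on day 2, Olfm4 at 198 ± 53.9 TPM overlapped Slc12a2 at 156 ± 7.82 TPM, Lgr5 was ninth at 14.0 ± 3.32 TPM and Aqp4 was last at 4.74 ± 1.30 TPM.

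**Figure D1:**
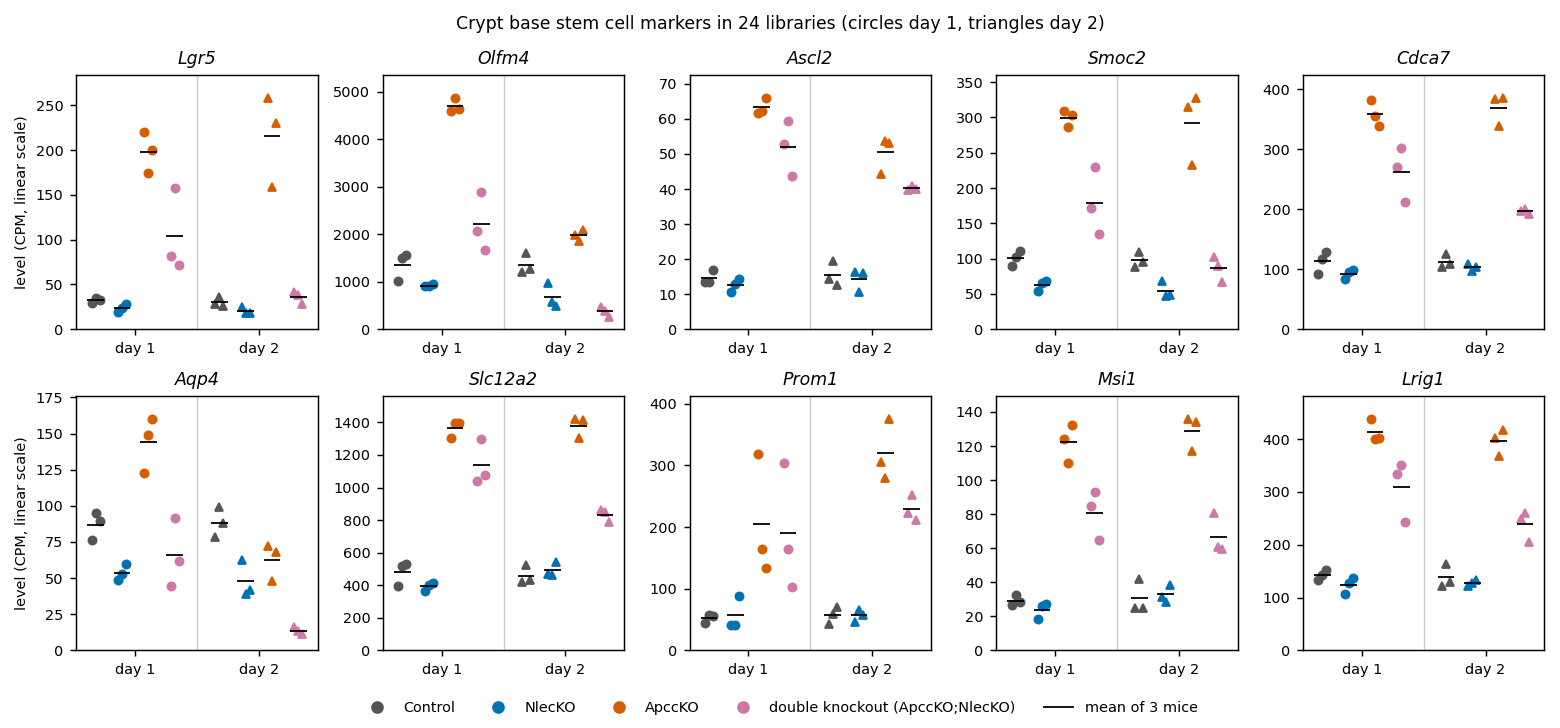
Level of each of the 10 markers in CPM (linear axis from 0) in the 24 libraries, by day (circles day 1, triangles day 2) and genotype (colour), with the mean of 3 mice as a bar. Lgr5 lies at 159 to 258 CPM in ApccKO on day 2 and at 28.6 to 41.7 CPM in the double knockout on that day, and Aqp4 in that double knockout group lies at 11.0 to 16.2 CPM.

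The plot of levels by library shows the order of the 8 groups for Lgr5. From lowest to highest the means were NlecKO day 2 (20.6 ± 4.20 CPM), NlecKO day 1 (23.9 ± 4.27 CPM), Control day 2 (30.2 ± 5.18 CPM), Control day 1 (32.4 ± 2.91 CPM), double knockout day 2 (36.1 ± 6.76 CPM), double knockout day 1 (104 ± 47.2 CPM), ApccKO day 1 (198 ± 23.0 CPM) and ApccKO day 2 (216 ± 51.5 CPM). Neighbours among the lowest 5 groups overlapped, and so did both ApccKO groups. The double knockout of day 1 was separate from the groups on either side of it, with libraries at 81.4, 158 and 72 CPM.

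Loss of Apc with Nle1 present, ApccKO against Control, addresses how the markers respond when Wnt signalling is set free. On day 1 all 10 rose, where 49.7% of all tested genes were called and 24.7% were called higher. Their median log2 change was 1.73, against -0.01 over all genes. Lgr5 went from 29.5, 35.3 and 32.5 CPM in the 3 Control mice to 220.3, 174 and 200.2 CPM in the ApccKO mice. No ApccKO library came near the Control range, and Lgr5 rose by 2.61 ± 0.27 on the log2 scale (6.10-fold, adjusted p = 7.9e-07). Ascl2, its companion among the Wnt-controlled stem cell regulators, was at 13.5, 13.6 and 16.9 CPM in Control and at 61.8, 62.2 and 66.0 CPM in ApccKO, a rise of 2.10 ± 0.17 (adjusted p = 2.3e-08). Both groups of Ascl2 values were tight, with SDs of 1.94 and 2.36 CPM. Of the secreted glycoproteins, Olfm4 was at 1010, 1495 and 1555 CPM in Control and at 4604, 4877 and 4642 CPM in ApccKO. It rose by 1.80 ± 0.25 (adjusted p = 1.6e-05), and Smoc2 rose by 1.57 ± 0.19 (adjusted p = 3.7e-06). The membrane proteins Lrig1 and Prom1, the RNA-binding Msi1, the chromatin protein Cdca7 and the cotransporter Slc12a2 rose by 1.51 to 2.07 on the log2 scale. Prom1 was the most variable of them: the ApccKO mice had 318, 165 and 134 CPM, so that its SE of 0.38 was the widest of the 10, and its Control values were 43.8, 58.2 and 55.8 CPM. Aqp4 rose least, from 76.1, 94.8 and 89.6 CPM to 123, 149 and 160 CPM, by 0.73 ± 0.22 (adjusted p = 0.011). Without the 3 libraries that stood apart, which leaves 1 ApccKO library of day 1 whose spread is taken from the other groups, 9 of the 10 were called and Aqp4 was not (0.51, adjusted p = 0.23); without Control replicate 1 Aqp4 was not called either (0.64, adjusted p = 0.054).

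On day 2, 8 of 10 rose, and Olfm4 and Aqp4 were not called, where 58.7% of all tested genes were called and 29.2% were called higher. Lgr5 stood at 28.2, 36.1 and 26.4 CPM in Control and at 258, 159 and 230.1 CPM in ApccKO, a rise of 2.83 ± 0.27 (7.10-fold, adjusted p = 9.8e-08). Prom1 rose by 2.49 ± 0.39 (adjusted p = 3.5e-05), with 305, 280 and 376 CPM in ApccKO and at most 69.6 CPM in Control. Ascl2, Smoc2, Lrig1, Msi1, Cdca7 and Slc12a2 rose by 1.51 to 2.06 on the log2 scale. Olfm4 was at 1204, 1598 and 1278 CPM in Control and at 1976, 1867 and 2082 CPM in ApccKO. These groups did not overlap, but the change of 0.54 ± 0.24 was not called (adjusted p = 0.063). Aqp4 was at 78.2, 98.9 and 88.2 CPM in Control and at 72.1, 47.8 and 67.7 CPM in ApccKO, so that all 3 ApccKO libraries lay below Control, with a change of -0.50 ± 0.23 (adjusted p = 0.064). Both lay close to the threshold: in a fit to only the libraries compared, Olfm4 passed at an adjusted p of 0.0070 and Aqp4 at 0.028, DESeq2 gave Olfm4 an adjusted p of 0.049, and without Control replicate 2 it was 0.041. With the higher markers, the summed enterocyte markers were at 3480 ± 1190 CPM in ApccKO and 26300 ± 14100 CPM in Control on day 2, and goblet markers at 2630 ± 446 and 12200 ± 1040 CPM; the part of these shifts in the markers' changes was not tested.

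**Figure D2:**
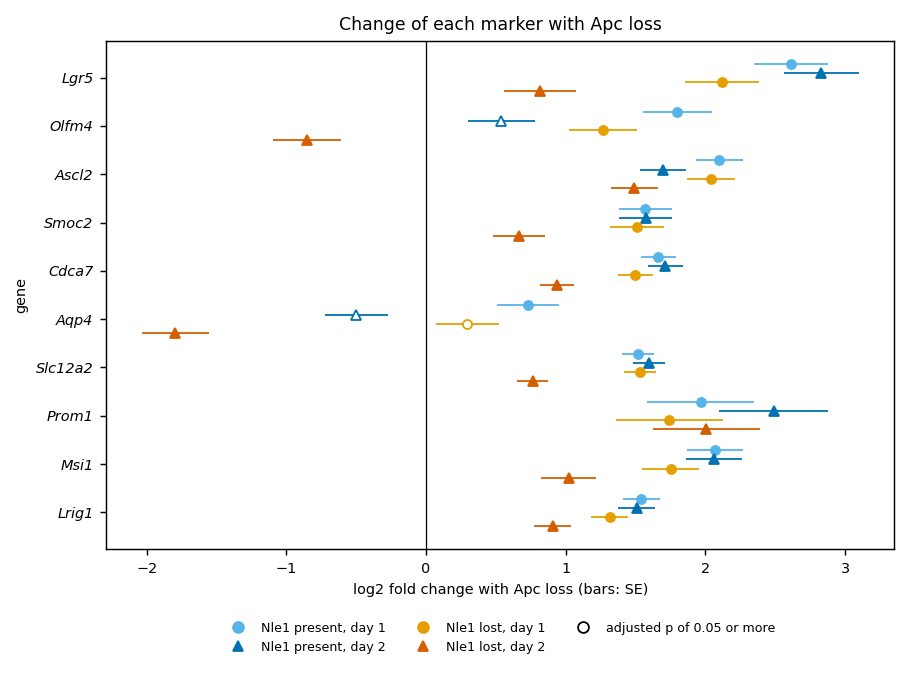
Log2 fold change of each marker with Apc loss (horizontal axis, bars are SE) on day 1 (circles) and day 2 (triangles), with Nle1 present (blue) and lost (orange); open symbols have an adjusted p of 0.05 or more. Olfm4 and Aqp4 on day 2 sit to the left of the other markers, at 0.54 and -0.50 with Nle1 present and at -0.85 and -1.80 with Nle1 lost.

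The change with Apc loss was then set against day. Its day difference was called for none of the 10 markers by edgeR, with 2 at an unadjusted p under 0.05 and 2 called by DESeq2, where 1.13% of all genes were called. Both sets of 2 were Olfm4 and Aqp4. The difference was -1.26 ± 0.34 for Olfm4 (edgeR adjusted p = 0.082, DESeq2 adjusted p = 0.0093) and -1.23 ± 0.32 for Aqp4 (edgeR adjusted p = 0.069, DESeq2 adjusted p = 0.0067). For Lgr5 it was 0.22 ± 0.36 (adjusted p = 0.87), with a 95% interval of -0.53 to 0.97.

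Loss of Nle1 with Apc intact, NlecKO against Control, asks whether the ribosome assembly factor is needed by stem cells in normal crypts. On day 1 none of the 10 markers was called by edgeR, while 5 had an unadjusted p under 0.05 and DESeq2 called 2 (Smoc2 and Aqp4); 2.48% of all genes were called. Smoc2 came closest: the Control mice had 89.9, 102 and 110.4 CPM and the NlecKO mice 53.7, 65.5 and 68.7 CPM. The groups did not overlap, and the change was -0.69 ± 0.19 (adjusted p = 0.058). Lgr5, Olfm4 and Aqp4 also had every NlecKO library below every Control library, which makes 4 of 10 markers where 11.5% of all genes did so. Their changes were -0.44 ± 0.26 for Lgr5 (adjusted p = 0.40), -0.56 ± 0.24 for Olfm4 (adjusted p = 0.23) and -0.69 ± 0.23 for Aqp4 (adjusted p = 0.11). Without Control replicate 1, Smoc2, Cdca7 and Slc12a2 were called lower, but the calls over all genes also rose in that fit, from 411 to 1189.

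On day 2 with Apc intact, 3 of 10 markers fell and none rose, where 15.6% of all genes were called and 8.26% were called lower. The 3 were the secreted Olfm4 and Smoc2 and the water channel Aqp4. Olfm4 was at 1204, 1598 and 1278 CPM in Control and at 982, 564 and 490.4 CPM in NlecKO, a change of -1.002 ± 0.24 (adjusted p = 0.0086). NlecKO replicate 1 lay nearest to Control. Smoc2 fell by 0.84 ± 0.19 on the log2 scale (adjusted p = 0.0053) and Aqp4 by 0.89 ± 0.23 (adjusted p = 0.011). Without NlecKO replicate 3, and in a fit to only the libraries compared, Smoc2 alone was called, and without NlecKO replicate 2 Aqp4 was not (adjusted p = 0.058). Lgr5 had 25.4, 18.6 and 17.7 CPM in NlecKO, all below the 26.4 CPM of the lowest Control library, and its change of -0.56 ± 0.26 was not called (adjusted p = 0.16). The other 6 markers changed by -0.13 to 0.10 on the log2 scale and none was called. For Ascl2 the change was -0.12 ± 0.17 with an interval of -0.47 to 0.23, and for Slc12a2 it was 0.10 ± 0.11 with an interval of -0.13 to 0.34. The day difference of Nle1 loss with Apc intact was called for no marker by edgeR (1 at an unadjusted p under 0.05, none by DESeq2), where 0.00604% of all genes were called. Beside these changes, the Control and NlecKO groups of day 2 had enteroendocrine marker sums of 510 ± 48.3 and 849 ± 43.8 CPM, with 6 of 10 called higher, where 7.33% of all genes were. Stromal marker sums were at 27.3 ± 10.8 and 50.5 ± 13.0 CPM, with 1 of 7 called higher. Enterocyte marker sums were at 26300 ± 14100 and 39800 ± 5970 CPM, in groups that overlapped. The median change of the 14 enterocyte markers was 0.61, and none of them was called. The part of these cells in the markers' changes was not tested.

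Loss of Nle1 with Apc lost, the double knockout against ApccKO, asks the same in crypts whose markers had risen. On day 1, 6 of 10 fell and none rose, where 10.6% of all genes were called and 4.77% were called lower. The 6 were Lgr5, Olfm4, Smoc2, Lrig1, Cdca7 and Aqp4. Lgr5 was at 220.3, 174 and 200.2 CPM in ApccKO and at 81.4, 158 and 72 CPM in the double knockout, a change of -0.93 ± 0.25 (adjusted p = 0.023). Double knockout replicate 2 lay close to the lowest ApccKO library, and the other 2 lay far below it. Olfm4 fell by 1.09 ± 0.24 on the log2 scale (adjusted p = 0.0077) and Aqp4 by 1.12 ± 0.23 (adjusted p = 0.0042). In a fit to only the libraries compared, Olfm4 alone was called, and the adjusted p of the other 5 was 0.072 to 0.18. Without the 3 libraries that stood apart, the changes of the 6 were -0.36 to -0.90 and their calls were lost. That fit leaves 1 ApccKO library and 2 double knockout libraries of day 1, and most calls over all genes were lost in it too. Without double knockout replicate 3 alone only Aqp4 was called, and without ApccKO replicate 1 alone Olfm4, Smoc2 and Aqp4 were. The Lgr5 call was also lost without ApccKO replicate 3 or double knockout replicate 1, and that of Lrig1 without ApccKO replicate 2 or 3.

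On day 2, 8 of the 10 markers fell and none rose, where 34.9% of all genes were called and 15.4% were called lower, and every double knockout library lay below every ApccKO library for all 10, where 23.3% of all genes did so. The median log2 change was -0.93, against 0.05 over all genes. Lgr5 was at 258, 159 and 230.1 CPM in ApccKO and at 41.7, 38.0 and 28.6 CPM in the double knockout. The groups were far apart, and Lgr5 fell by 2.58 ± 0.27 on the log2 scale (5.96-fold lower, adjusted p = 1.3e-06). Olfm4 went from 1976, 1867 and 2082 CPM to 470, 391 and 267 CPM, a change of -2.39 ± 0.25 (adjusted p = 1.5e-06). Aqp4 went from 72.1, 47.8 and 67.7 CPM to 16.2, 13.6 and 11.0 CPM, a change of -2.19 ± 0.24 (adjusted p = 2.4e-06). Smoc2, at 314, 232 and 328 CPM in ApccKO, was at 103, 89.8 and 67.6 CPM in the double knockout and fell by 1.75 ± 0.19 (adjusted p = 1.9e-06). These 4 markers thus fell by more than 1.7 on the log2 scale.

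The other 4 that fell are markers that dividing progenitors also carry. The size of the fall did not follow that class throughout. Ascl2, one of the narrower markers, and Prom1, one that progenitors also carry, were not called. Msi1 changed by -0.95 ± 0.19, Cdca7 by -0.91 ± 0.12, Lrig1 by -0.73 ± 0.13 and Slc12a2 by -0.73 ± 0.11, with adjusted p of 5.5e-05 for Slc12a2 and 0.00083 for Msi1. In the double knockout Cdca7 was the most even of them, with 198, 200.6 and 193 CPM there and 383, 339 and 386 CPM in ApccKO. Ascl2, a Wnt-controlled regulator like Lgr5, was at 44.4, 53.6 and 53.3 CPM in ApccKO and at 39.7, 40.9 and 40.1 CPM in the double knockout. The groups were separate, but the change was -0.32 ± 0.16 and was not called (adjusted p = 0.13), with an interval of -0.66 to 0.01. Prom1 changed by -0.48 ± 0.37 (adjusted p = 0.33), with 223, 251 and 212 CPM in the double knockout and an interval of -1.26 to 0.29. In a fit to only the 6 libraries compared, which uses their own smaller spread, both were called: Ascl2 at -0.37 with an adjusted p of 0.0044 and Prom1 at -0.53 with 0.0058. Leaving out any 1 of the 6 libraries gave 8 markers called each time.

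**Figure D3:**
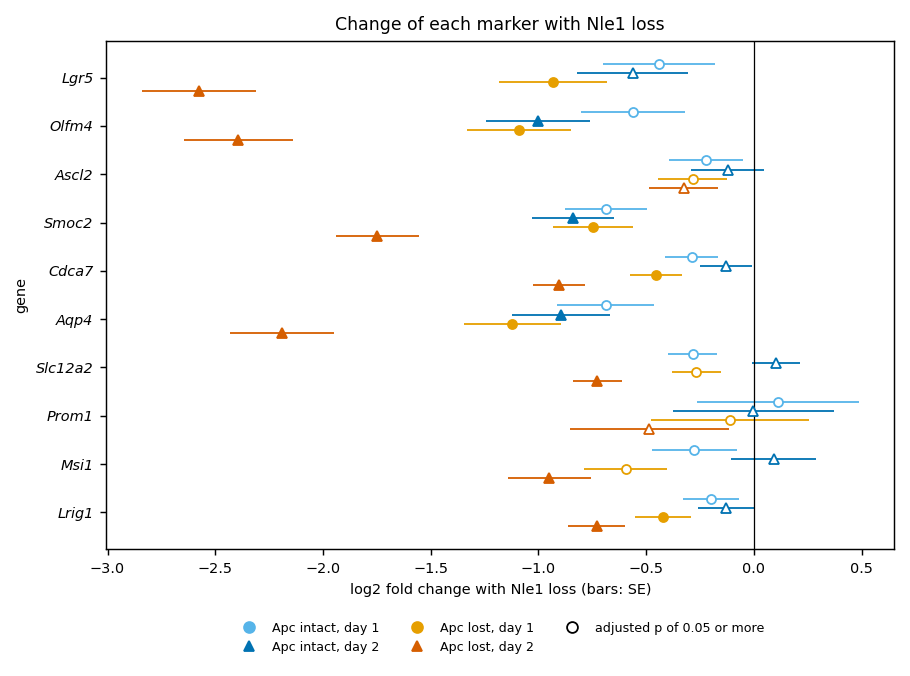
Log2 fold change of each marker with Nle1 loss (horizontal axis, bars are SE) on day 1 (circles) and day 2 (triangles), with Apc intact (blue) and lost (orange); open symbols have an adjusted p of 0.05 or more. On day 2 with Apc lost, Lgr5, Olfm4, Aqp4 and Smoc2 lie between -2.58 and -1.75, and the other 6 between -0.95 and -0.32.

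Markers of other cell types were read in the same comparison. Summed goblet markers were at 2630 ± 446 CPM in ApccKO and 6200 ± 764 CPM in the double knockout on day 2, with 6 of 8 called higher and 1 lower, where 19.5% of all genes were called higher. Enteroendocrine marker sums were at 264 ± 52.7 and 416 ± 53.3 CPM, with 7 of 10 called higher and 2 lower. Immune marker sums were at 54.6 ± 4.59 and 101 ± 12.7 CPM, with 5 of 10 called higher. Stromal marker sums were at 12.4 ± 3.44 and 27.0 ± 8.23 CPM, with 4 of 7 called higher. Tuft cell marker sums were at 25.7 ± 3.39 and 37.0 ± 5.37 CPM, with 2 of 7 called higher. Enterocyte marker sums were at 3480 ± 1190 and 6960 ± 1970 CPM, with 2 of 14. The tuft count lay near the share of all genes called higher and the enterocyte count below it, so no change of these 2 lists is read from the calls. No ApccKO library reached the double knockout range in any of these sums. The same held for the summed defining genes of the epithelium, at 6300 to 7480 CPM in ApccKO and 8280 to 9330 CPM in the double knockout. Of these 6 genes, however, 1 was called higher and 1 lower, with a median change of 0.21. Paneth marker sums, from the neighbours of the stem cells, were at 9350 ± 501 and 11900 ± 4030 CPM, in groups that overlapped. The median change of these markers was 0.42, with 0 of 10 called by edgeR. The part of these cell types in the fall of the stem cell markers was not tested.

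Whether Nle1 loss acted differently with and without Apc was tested as an interaction, the log2 change with Apc lost minus that with Apc intact. On day 1 no marker was called by edgeR (0 at an unadjusted p under 0.05, 0 by DESeq2), where 0.0121% of all genes were called. On day 2 the interaction was called for 6 of 10, all toward a larger fall in Apc-lost crypts, where 5.24% of all genes were called and 1.95% in that direction. It was -2.01 ± 0.36 for Lgr5 (adjusted p = 0.0043), which is a change of -0.56 with Apc intact against -2.58 with Apc lost. It was -1.39 ± 0.34 for Olfm4 (adjusted p = 0.023) and -1.30 ± 0.33 for Aqp4 (adjusted p = 0.026), both of which fell in either state of Apc. For Msi1 it was -1.04 ± 0.28 (adjusted p = 0.033), for Slc12a2 -0.83 ± 0.16 (adjusted p = 0.0051) and for Cdca7 -0.78 ± 0.17 (adjusted p = 0.011), 3 genes that were not called with Apc intact. Smoc2 and Lrig1 narrowly missed the threshold at -0.91 ± 0.27 (adjusted p = 0.053) and -0.60 ± 0.18 (adjusted p = 0.062), and DESeq2 called both. Ascl2 and Prom1 were not called, with -0.20 ± 0.23 (adjusted p = 0.68) and -0.48 ± 0.52 (adjusted p = 0.66). The calls for Olfm4, Aqp4 and Msi1 were each lost when 1 of several libraries was left out: without ApccKO replicate 3, double knockout replicate 3, Control replicate 1 or Control replicate 3, only Lgr5, Cdca7 and Slc12a2 remained called.

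**Figure D4:**
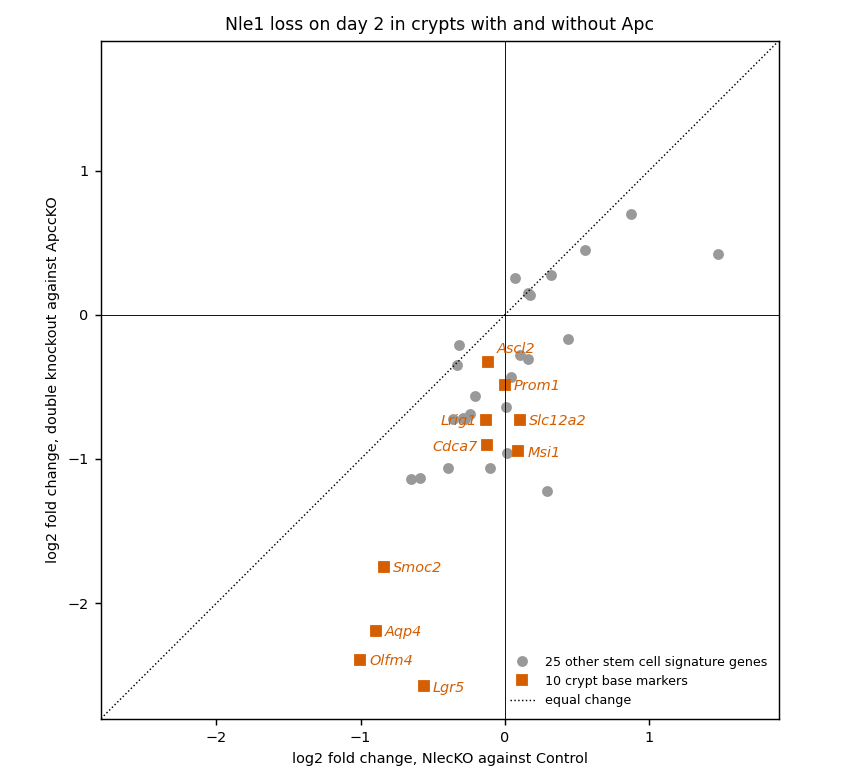
Log2 fold change with Nle1 loss on day 2 in Apc-intact crypts (horizontal axis) and in Apc-lost crypts (vertical axis), for the 10 markers (named squares) and 25 other stem cell signature genes (circles); the dotted line marks equal change. All 10 markers lie below that line, with Lgr5 farthest from it at -0.56 and -2.58.

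Apc loss on the background of Nle1 loss, the double knockout against NlecKO, gives the net position of the markers. On day 1, 9 of 10 rose and none fell, where 52.6% of all genes were called and 28.2% were called higher. Lgr5 rose by 2.12 ± 0.26 (adjusted p = 6.2e-06) and Ascl2 by 2.04 ± 0.17 (adjusted p = 4.3e-08). Aqp4 was not called, at 0.30 ± 0.23 (adjusted p = 0.28), with NlecKO libraries at 48.4, 53.1 and 60.1 CPM and double knockout libraries at 44.8, 91.6 and 62.1 CPM that overlapped them. On day 2 all 10 were called, 8 higher and 2 lower, where 47.8% of all genes were called, 25.6% higher and 22.2% lower. The 2 lower were Aqp4, which fell by 1.80 ± 0.24 on the log2 scale (adjusted p = 1.1e-05), and Olfm4, which fell by 0.85 ± 0.24 (adjusted p = 0.0071). The Olfm4 call was lost without NlecKO replicate 1 (-0.49, adjusted p = 0.081) and in a fit to only the libraries compared (adjusted p = 0.070). Prom1 rose most, by 2.01 ± 0.38 (adjusted p = 0.00041), followed by Ascl2 with 1.49 ± 0.17 (adjusted p = 1.2e-06). Lgr5 rose by 0.82 ± 0.26 (adjusted p = 0.014), a call that was lost without double knockout replicate 1 or without NlecKO replicate 2 or 3, at adjusted p of 0.053 to 0.056. Set beside Control of the same day, the double knockout of day 2 had 1.19 times the mean Lgr5 level, 0.276 times that of Olfm4 and 0.154 times that of Aqp4.

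Days were compared within each genotype. No marker was called between day 2 and day 1 in Control by edgeR (0 at an unadjusted p under 0.05, 0 by DESeq2), where 0.163% of all genes were called, and the changes lay between -0.10 and 0.12 on the log2 scale. None was called in NlecKO by edgeR either (2 at an unadjusted p under 0.05, 0 by DESeq2), where 0.0362% of all genes were called. In ApccKO 2 of 10 fell and none rose, where 11.3% of all genes were called and 5.49% were called lower. Olfm4 dropped from 4604, 4877 and 4642 CPM to 1976, 1867 and 2082 CPM, a change of -1.25 ± 0.24 (adjusted p = 0.0027). Aqp4 changed by -1.20 ± 0.23 (adjusted p = 0.0022), from 123, 149 and 160 CPM to 72.1, 47.8 and 67.7 CPM. Without the 3 libraries that stood apart, neither was called, at -1.23 for Olfm4 (adjusted p = 0.13) and -0.98 for Aqp4 (adjusted p = 0.21). Over the same interval Lgr5 in ApccKO changed by 0.12 ± 0.25 (adjusted p = 0.81), with an interval of -0.40 to 0.64.

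In the double knockout 6 of 10 fell between day 1 and day 2 and none rose, where 6.49% of all genes were called and 3.04% were called lower. Olfm4 went from 2074, 2891 and 1670 CPM to 470, 391 and 267 CPM, a change of -2.56 ± 0.26 (5.88-fold lower, adjusted p = 2.1e-05). Aqp4 fell by 2.27 ± 0.24 on the log2 scale (adjusted p = 4.7e-05), Lgr5 by 1.52 ± 0.26 (adjusted p = 0.0024) and Smoc2 by 1.04 ± 0.19 (adjusted p = 0.0032). Slc12a2 and Cdca7 fell by less, at -0.45 ± 0.11 (adjusted p = 0.022) and -0.41 ± 0.12 (adjusted p = 0.046). Prom1 was at 304, 164 and 103 CPM on day 1 and at 223, 251 and 212 CPM on day 2, and its change of 0.27 ± 0.37 was not called (adjusted p = 0.76). In a fit to only the libraries compared, Olfm4 and Aqp4 alone were called, and without the 3 libraries that stood apart 7 were, Lrig1 among them (-0.52, adjusted p = 0.023). Leaving out 1 library lost the Cdca7 call in every case but day 1 replicate 3, and the Slc12a2 call without day 1 replicate 2 or day 2 replicate 2 or 3. The difference between days of the Nle1 effect in Apc-lost crypts was tested directly and called for 1 of 10 markers, where 0.435% of all genes were called. That marker was Lgr5, at -1.64 ± 0.36 (adjusted p = 0.047), and without the 3 libraries that stood apart its adjusted p was 0.27 at -1.69. With 1 library left out, it was called only without day 1 double knockout replicate 3, day 2 double knockout replicate 1 or day 2 ApccKO replicate 2. DESeq2 called 4, adding Olfm4, Smoc2 and Aqp4.

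The genes whose levels most resembled those of 3 markers were taken by Pearson correlation of log2 CPM over the 24 libraries. They were sought among 10020 genes with a mean of at least 5 CPM. Genes with a provisional symbol (Gm and digits, Rik or a clone name) were left out. The values describe these libraries, which share genotypes and days, and carry no test. For Lgr5 the nearest was another marker, Smoc2 (r = 0.98), followed by Gpld1, Evl, Maged1 and Tgif2. For Olfm4 the nearest were Hmbox1 (r = 0.94), Pds5b, Vegfb, Pbk and Hmgb2. For Prom1 they were Pla2g2f (r = 0.97), Tifa, Cnp, Shf and Slc41a1. Within the 12 Apc-intact libraries the correlation of Lgr5 with its 5 genes ran from 0.65 (Evl) to 0.94 (Smoc2). That of Olfm4 ran from 0.83 (Vegfb) to 0.95 (Hmgb2), and that of Prom1 from 0.20 (Cnp) to 0.85 (Tifa).

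The wider stem cell signature was read from 25 further genes, all tested. With Apc loss and Nle1 present, all 25 rose on day 1, where 49.7% of all genes were called and 24.7% were called higher, and 23 rose on day 2, where the shares were 58.7% and 29.2%. None fell on either day, and without the 3 libraries that stood apart 23 rose on day 1. On day 2 these included Rnf43, a membrane ubiquitin ligase that restrains Wnt receptors, at 1.92 ± 0.09 (adjusted p = 6.4e-12), Soat1, which esterifies cholesterol, at 1.96 ± 0.13 (adjusted p = 6e-10), and the ephrin receptor Ephb3 at 2.70 ± 0.18 (adjusted p = 6.5e-10). With Nle1 loss in Apc-lost crypts on day 2, 15 of 25 fell and 2 rose, where 34.9% of all genes were called, 15.4% lower and 19.5% higher. The median change was -0.43, against 0.05 over all genes. The transcription factor Myb fell by 1.14 ± 0.15 on the log2 scale (adjusted p = 8.8e-06), the transporter Slco3a1 by 0.96 ± 0.16 (adjusted p = 0.00011) and Tns3, which links integrins to the cytoskeleton, by 0.69 ± 0.10 (adjusted p = 1.8e-05). Tnfrsf21 and Zbtb38 rose, by 0.70 ± 0.11 (adjusted p = 6.8e-05) and 0.27 ± 0.08 (adjusted p = 0.0096). With Apc intact on day 2, 3 of 25 fell and 4 rose, where 15.6% of all genes were called, 8.26% lower and 7.33% higher. With so few genes called, no change of the list as a whole is read from them. Among those that rose was Cd44, a Wnt target and hyaluronan receptor, at 1.48 ± 0.24 (adjusted p = 0.00040), while Lgr4, the close relative of Lgr5, fell by 0.32 ± 0.09 (adjusted p = 0.020). The interaction on day 2 was called for 4 of 25, all toward a larger fall with Apc lost, where 1.95% of all genes were, among them Tnfrsf19 at -1.51 ± 0.35 (adjusted p = 0.016).

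Because crypt base stem cells divide, 15 genes of DNA replication and mitosis were read beside the markers. With Nle1 loss in Apc-lost crypts all 15 fell on day 2, where 34.9% of all genes were called and 15.4% were called lower. On day 1, 14 fell, where 10.6% were called and 4.77% were called lower. Without the 3 libraries that stood apart, the day 1 count was 0 by edgeR (6 at an unadjusted p under 0.05, DESeq2 not run on that set), with a median of -0.46 in place of -0.57, where 0.199% of all genes were called. With Apc intact 11 fell on day 2, where 15.6% were called and 8.26% were called lower, and 7 fell on day 1, where 2.48% were called and 1.61% were called lower. None rose in any of these 4 comparisons. On day 2 Mki67 fell by 0.998 ± 0.16 with Apc intact (adjusted p = 0.00044), and the replicative helicase subunit Mcm6 fell by 1.16 ± 0.15 with Apc lost (adjusted p = 8e-06). In the day 2 interaction none of the 15 was called by edgeR, where 5.24% of all genes were called. Their median there was -0.44, against -0.87 for the 10 markers and 0.04 over all genes. The part of the division genes in the markers' changes was not tested.

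Reads from stretches shared with other genes could enter the counts of some markers. Words were matched on either strand, so a copy and an overlapping gene are not told apart. Of the 31-base words of Olfm4 transcripts, 4.2% also occurred in Gm6999, and 7.48% of those of Prom1 occurred in another gene, mostly Gm16401. For the other 8 markers the share was at most 2.03%. The sources used here do not say how the authors' counting divided such reads.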

How the data were processed

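The authors deposited estimated counts (expected counts per gene) and TPM per gene for 24 libraries; per the submitters' processing notes these came from kallisto 0.43 with build mm9. The annotation release is not given in the sources used here. Samples were grouped by the labels' genotype and day. Estimated counts were rounded, filtered with edgeR 4.0.16 (minimum count 10, 8 groups; 16552 of 37620 genes kept), scaled by TMM and fitted with 1 mean per group to all 24 libraries (robust quasi-likelihood fit, R 4.3.3), with a prior count of 2 and Benjamini-Hochberg adjustment. TPM served only for levels between genes. The markers and lists were chosen with earlier results of these data known. Named genes are the 10 markers, Nle1 and Apc, up to 3 called genes per direction of each list with the smallest p, and the 5 genes most like Lgr5, Olfm4 and Prom1. Where a symbol had 2 rows (2 signature genes), the row with the higher mean was kept. Alternatives were DESeq2 1.42.0, its size factors in edgeR, other filters, a replicate term, a fit to the libraries compared, and leaving libraries out. The procedure was tested on simulated data. The shared words came from GENCODE M21 transcripts, and intervals are at 95%.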

Additional observations from a re-analysis of the deposited data

Results flagged for a closer look

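On day 2 the change with Nle1 loss differed between Apc-lost and Apc-intact crypts for 6 markers by the interaction test of edgeR: Lgr5 (-2.01), Olfm4 (-1.39), Aqp4 (-1.30), Msi1 (-1.04), Slc12a2 (-0.83) and Cdca7 (-0.78), on the log2 scale. In Apc-intact crypts the summed goblet markers were at 12200 CPM (Control) and 12600 CPM (NlecKO) on that day, and in Apc-lost crypts at 2630 CPM in ApccKO and 6200 CPM in the double knockout; their part in the result was not tested. For Lgr5 the change with Nle1 loss in Apc-lost crypts also differed between days (-1.64, adjusted p = 0.047), and this call was lost without the 3 libraries of day 1 that stood apart.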

How the results depend on the processing

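Of 2420 single marker values under an alternative setting, 2297 kept their side of the threshold, 85 lost a call, 38 gained one, and none that passed changed direction; a direction was read only for a value that passed. The count of markers called moved by over 1.5 times as follows. With DESeq2 it was 2 in place of 0 on day 1 for Nle1 loss with Apc intact, 4 in place of 1 for the day difference of Nle1 loss with Apc lost, and 2 in place of 0 for that of Apc loss. Fitting only the libraries compared gave 1 in place of 6 for Nle1 loss with Apc lost on day 1, 1 in place of 3 on day 2 with Apc intact, 2 in place of 6 between days in the double knockout, 0 in place of 1 for the day difference of Nle1 loss with Apc lost and 2 in place of 0 for that of Apc loss. No filter beyond 1 count gave 0 for the day difference of Nle1 loss with Apc lost. Without the 3 libraries of day 1 that stood apart, the counts were 0 in place of 6 for Nle1 loss with Apc lost on day 1, 0 in place of 2 between days in ApccKO, and 0 for the day difference of Nle1 loss with Apc lost. Leaving out each replicate in turn gave 0 to 3 on day 1 for Nle1 loss with Apc intact, 1 to 8 with Apc lost on day 1, 1 to 3 with Apc intact on day 2, 3 to 8 for the interaction on day 2, 0 to 2 for the day difference of Nle1 loss with Apc lost and 0 to 1 for that of Apc loss. Deviations from the group means had a median r of 0.02 over 84 pairs of libraries with the same replicate number, 23 above 0.1. The 168 other pairs had a median of -0.01, with 32 above 0.1. The labels do not say whether the numbers pair the mice, and these values cannot exclude a weak pairing. With the replicate block, 0 markers were called in the day difference of Nle1 loss with Apc lost (Lgr5, adjusted p = 0.066) and Cdca7 was not called between days in the double knockout (adjusted p = 0.059); it changed no other call of a marker. The lowest level of a marker in any library, Ascl2 in NlecKO replicate 1 of day 1, rested on 181 estimated counts; the number of mice per group limits small changes. Over all genes, the count called for Nle1 loss with Apc lost on day 1 was 1762, against 582 when those libraries were fitted alone and 33 without the 3 libraries; for Nle1 loss in Apc-intact crypts on day 1 it was 411, against 800 with DESeq2 and 21 in a fit to only the libraries compared.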

Other observations

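A list of 10 genes of reserve and regenerating stem cells was read beside the crypt base markers. With Nle1 loss in Apc-lost crypts on day 2, 4 of 10 rose and 1 fell, where 34.9% of all genes were called, 19.5% higher and 15.4% lower. The keratin Krt15 went from 2.26 to 64.2 CPM (4.77 ± 0.29, adjusted p = 1.1e-09), Krt19 rose by 1.09 ± 0.14 (adjusted p = 5.9e-06), and Ly6a, the gene of the surface protein Sca-1, rose by 2.53 ± 0.61 (adjusted p = 0.0037). Mex3a, an RNA-binding protein of slowly cycling Lgr5 cells, fell by 1.69 ± 0.21 on the log2 scale (adjusted p = 4.1e-06). With Apc intact on day 2, 4 of 10 rose and none fell, where 15.6% of all genes were called and 7.33% were called higher, among them Krt15 (2.14 ± 0.27, adjusted p = 3.6e-05) and Hopx (0.39 ± 0.09, adjusted p = 0.0064). The interaction on day 2, called for 5.24% of all genes, was called for Krt15 (2.63 ± 0.38, adjusted p = 0.00060), Krt19 (0.94 ± 0.19, adjusted p = 0.0071), Tert (0.65 ± 0.19, adjusted p = 0.049) and, in the other direction, Mex3a (-1.22 ± 0.30, adjusted p = 0.021). With Apc loss and Nle1 present on day 2, 7 rose and 2 fell, where 58.7% of all genes were called and 29.2% were called higher. Sox9, also counted in the wider stem cell signature, rose by 2.08 ± 0.20 (adjusted p = 9.6e-08) and Krt19 fell by 0.78 ± 0.14 (adjusted p = 6.2e-05).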
